A study of Tupaia belangeri with 2 samples.

Results

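SST, NTS, AVP and CHGB are 4 genes for secreted peptides and for a protein of the vesicles that store such peptides. They were chosen by name, and the tree shrew annotation holds 1 gene model for each, so the set is 4 of 23975 models: evm.model.chr1.146 (SST), evm.model.chr7.801 (NTS), evm.model.chr10.1058 (AVP) and evm.model.chr10.1097 (CHGB). All 4 had transcripts in both animals, with 5514 UMIs of SST, 583 of NTS, 1250 of AVP and 1521 of CHGB over all barcodes. A UMI (unique molecular identifier) marks 1 captured transcript. The data are raw UMI counts from 2 Tupaia belangeri embryos, taken between 4 and 5 weeks after conception, whose whole brains each gave 1 library by the droplet method (10x Genomics, v3 chemistry). Before the tissue was dissociated with papain, the dura mater and the blood vessels had been taken off. The labels give no treatment, genotype or second condition for either embryo, and n is 2 animals throughout.

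SST encodes the precursor of somatostatin, an inhibitory peptide known from a major class of cortical and striatal interneurons and from cells of the hypothalamus. NTS encodes the precursor of neurotensin and neuromedin N, and AVP that of vasopressin and its carrier neurophysin, made by large hypothalamic neurons that release it into the blood. Such precursors are cut by prohormone convertases (PCSK1, PCSK2) and trimmed by carboxypeptidase E (CPE). Some of the peptides, such as vasopressin, are also amidated by PAM, and all are stored in dense-core vesicles. CHGB is a granin, an acidic protein that helps to form those vesicles, and so is a component shared by many peptide-releasing cells, not a messenger of a single cell type.

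Of 18926 barcodes, 17735 had at least 200 genes and were kept as cells, 8408 from embryo 1 and 9327 from embryo 2, with medians of 3539 and 3169 UMIs. The libraries held 41868023 and 38077767 UMIs and shared 18 barcodes. Embryo 1 held more haemoglobin transcripts, with 28.7% of the UMIs of all its barcodes from haemoglobin genes against 13.6% in embryo 2. The cells formed 16 clusters, from which the 4 genes and every gene of the lists used below had been withheld. Of these, 13 carried enough markers of 1 type for a name, which gave 10 classes, and clusters 5, 6 and 15 stayed unnamed. Levels are given as UMIs per 1000000 UMIs of a group (CPM), each with the SD over the 2 embryos. A drop in CPM of a group can come from fewer cells that make a transcript or from fewer transcripts in each.

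SST was abundant in 2 large groups of cells and scarce elsewhere. In forebrain GABA neuron-like cells (2432 cells with markers such as DLX2 and DLX5, transcription factors of the ventral forebrain) its level was 457 CPM in embryo 1 and 361 in embryo 2, a mean of 409 ± 68.1 CPM (SD, n = 2). In cluster 5 (1581 cells) it was 287 and 533 CPM, a mean of 410 ± 174. Cluster 5 stayed unnamed because its leading genes included TCF7L2, a marker of midbrain or thalamus excitatory neurons. Its granule neuron markers ZIC1, ZIC2, ZIC4, CBLN1 and RELN were not among them. Cluster 15, a group of 148 cells with few UMIs each (medians of 649 and 765), gave 376 and 658 CPM from 59 UMIs in all. Most of these lay in 1 cell of each embryo, with 23 of 35 UMIs in embryo 1 and 21 of 24 in embryo 2. Without those cells the level was 131 and 83.8 CPM. With all cells, the levels of these 3 groups overlapped within their spread and stood clear of the next group.

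That next group, midbrain GABA neuron-like cells (3011 cells with GATA3, OTX2 and TFAP2B), had 55.3 and 23.2 CPM of SST, or 39.2 ± 22.7. In embryo 1, 83 of its 128 SST UMIs lay in 1 cell. Without the top cell of each embryo the levels were 19.5 and 19.4 CPM. From there the order ran through midbrain or thalamus excitatory neuron-like cells with 24.8 ± 3.99 CPM, cortical excitatory neuron-like cells with 15.1 ± 13.9 and radial glia-like cells with 11.8 ± 13.8, and no neighbours in it differed beyond their spread. In cortical excitatory neuron-like cells of embryo 2, 46 of the 53 SST UMIs lay in 1 cell, and the level without it was 3.30 CPM. In radial glia-like cells the animals differed, with 2.04 CPM in embryo 1 and 21.5 in embryo 2. Without the top cell of each embryo these were 1.84 and 15.9 CPM. Erythroid, pericyte or meningeal, dividing, choroid plexus and microglia-like cells and cluster 6 all lay between 4.31 and 8.67 CPM. Together, forebrain GABA neuron-like cells and cluster 5 held 41.4% and 43.2% of all SST UMIs.

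CHGB was high in the same 2 large groups. Its level was 68.9 and 140 CPM in forebrain GABA neuron-like cells (104 ± 50.03) and 107 and 91.9 CPM in cluster 5 (99.6 ± 10.8). Those 2 groups overlapped and held 42.1% and 38.1% of the CHGB UMIs. Cluster 15 followed with 64.5 CPM in embryo 1 and 0 UMIs in embryo 2, where 3 counts would be 82.2 CPM. Cortical excitatory neuron-like cells had 18.0 ± 12.8 CPM and midbrain GABA neuron-like cells 6.17 ± 2.62. The lowest level, 0.595 ± 0.0236 CPM, was that of erythroid cell-like cells.

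NTS had a different home from SST and CHGB. Midbrain GABA neuron-like cells carried 45.3 and 44.7 CPM (45.0 ± 0.415) and 54.6% of all NTS UMIs. That level was 16.4 CPM when at least 1000 genes for each cell were required and 69.3 as a mean over cells. Forebrain GABA neuron-like cells had 16.1 ± 1.01 and cluster 5 15.2 ± 0.537, which overlapped with each other and not with the first. Cluster 15 had 1 NTS UMI in each embryo (19.1 ± 11.8 CPM), under the levels that 3 counts would give there, 32.3 and 82.2 CPM. Cortical excitatory neuron-like cells showed 20.2 CPM in embryo 1 and 2.35 in embryo 2, and a single cell of embryo 1 with 34 UMIs was the highest NTS cell of the series. No other group passed 2.12 CPM, and pericyte or meningeal and microglia-like cells had 0 NTS UMIs.

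**Figure D1:**
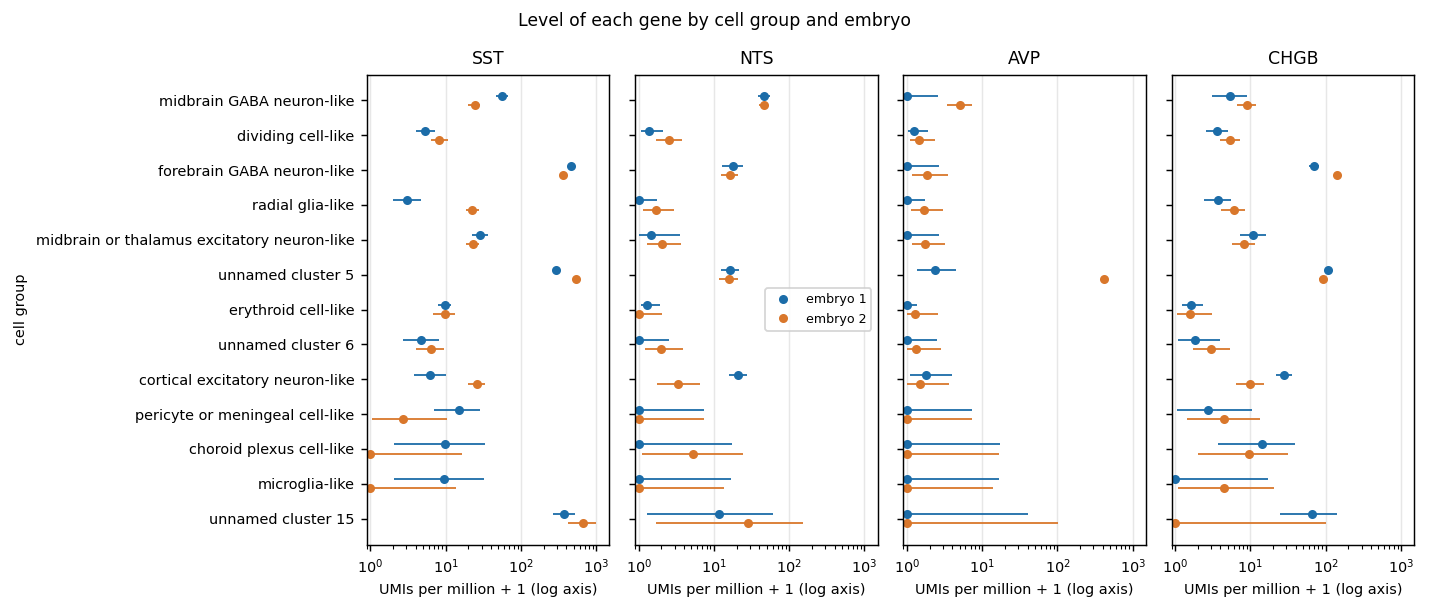
Level of SST, NTS, AVP and CHGB in each of the 13 cell groups (rows), as CPM plus 1 on a log axis, with 1 point for each embryo and bars for the exact 95% Poisson interval, which covers counting error only. Among the large groups SST and CHGB are highest in forebrain GABA neuron-like cells and cluster 5, the SST points of the shallow cluster 15 lie at 376 and 658 CPM, NTS is highest in midbrain GABA neuron-like cells at about 45 CPM in both embryos, and the AVP point of embryo 2 at 416 CPM in cluster 5 has no counterpart in embryo 1.

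AVP was almost the transcript of a single cell. One cell of embryo 2, in cluster 5, held 1206 AVP UMIs of 9936 in that cell (12.1%), which is 96.5% of the AVP of both embryos. The level of cluster 5 was 1.38 CPM in embryo 1 and 416 CPM in embryo 2 for that reason. A second cell of embryo 2, in the midbrain GABA neuron-like class, held 17 UMIs. Without these 2 cells AVP came to 8 UMIs in 6 cells of embryo 1 and 19 UMIs in 18 cells of embryo 2, no cell had more than 2, and the levels over all cells were 0.209 and 0.531 CPM. Scrublet, a method that scores likely doublets, put neither of the 2 cells among its highest scores.

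The cell with 1206 AVP UMIs also held transcripts for peptide processing. It had 5 UMIs of PCSK1, a convertase, where the mean level of the other 799 cells of cluster 5 in that embryo would give 0.0844 at its depth, and 18 of those cells had any. Of PCSK1N, a granin-like inhibitor of that convertase, it had 61 UMIs against 31.2 at the group's level, and of SCG3, a granin-like vesicle protein, 14 against 10.2. CPE stood at 8 against 6.24. Of the transcription factors of the hypothalamic list it held 1 UMI of SIM1 and 3 of POU3F2, and none of OTP, NKX2-2, HMX2, HMX3, FEZF1, RAX or TBX3. Factors of other lists were found too. It held 4 UMIs of FEZF2, of the cortical list, against 0.193 at the group's level, and 27 of the other 799 cells had any. Of TSHZ1, on the striatal list, it held 1 against 0.0121. SIM1 and POU3F2 are known from vasopressin neurons, but POU3F2 was found in 5027 cells of the series. At the group's level 0.0392 UMIs of SIM1 and 1.15 of POU3F2 would be found, and 11 and 237 of the other 799 cells had any. Being 1 cell, the AVP cell gives these values without any error.

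No cluster earned the name hypothalamic neuron-like. OXT, which encodes the related peptide oxytocin, had 0 UMIs in both embryos, which allows up to 0.0717 CPM in embryo 1 and 0.0788 in embryo 2. OTP had 7 UMIs in each embryo and SIM1 22 and 24. PMCH, another hypothalamic peptide gene, had 107 UMIs in 3 cells of embryo 2 and 6 UMIs in 3 cells of embryo 1. POMC, the precursor of melanocortins and endorphin, was wider, with 216 UMIs in 42 cells and 422 UMIs in 85 cells.

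Among the cells with at least 1 UMI, SST stood out by how much each cell held. SST was detected in 338 cells of embryo 1 (4.02%, exact 95% interval 3.61 to 4.46) and 373 of embryo 2 (4.00%, 3.61 to 4.42), with a mean of 6.66 and 8.73 UMIs for each positive cell and a median of 2 in both. CHGB was detected in about as many cells, 293 (3.48%) and 429 (4.60%), but with a mean of 2.10 and 2.09 UMIs and a median of 1. NTS was found in 110 (1.31%) and 186 cells (1.99%), with a mean of 2.24 and 1.80 UMIs and a median of 1. SST and CHGB were thus found in a like number of cells, with more UMIs of SST in each.

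The upper ends of these distributions differed most. The highest SST cells held 225 UMIs in embryo 1 and 242 in embryo 2, and SST made up as much as 6.28% of the UMIs of a cell. Cells with at least 10 SST UMIs, 51 in embryo 1 and 84 in embryo 2, were 19.0% of the positive cells and held 75.0% of the SST UMIs. For CHGB the highest cells held 21 and 16 UMIs, and 12.2% of its UMIs lay in cells with at least 10. For NTS the highest cells held 34 and 19 UMIs. Single UMIs made up 44.4% of the SST-positive, 60.1% of the CHGB-positive and 63.2% of the NTS-positive cells.

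**Figure D2:**
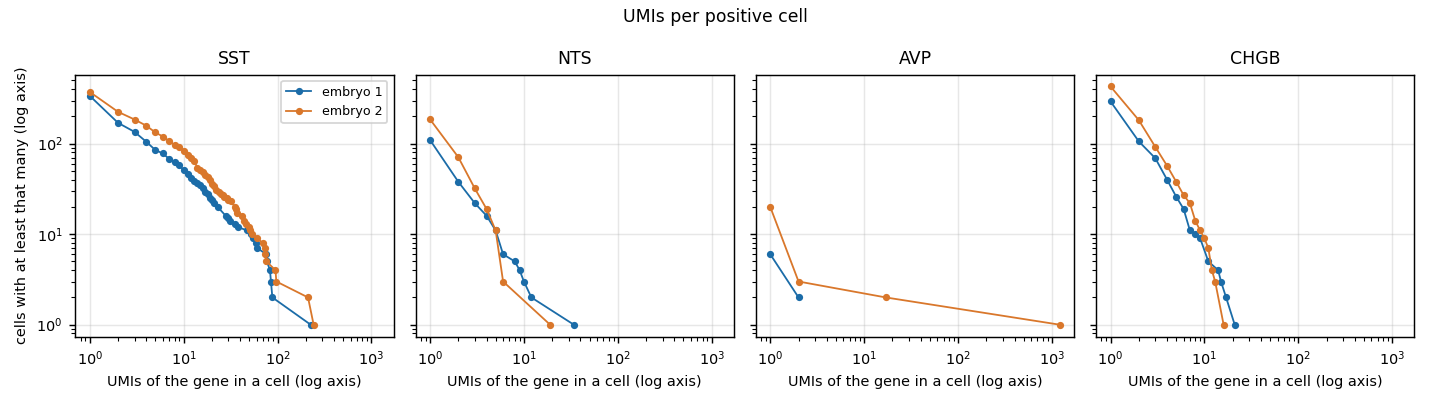
Number of cells (log axis) with at least a given number of UMIs (log axis) of SST, NTS, AVP and CHGB, with 1 line for each embryo. The SST lines reach 225 and 242 UMIs with many cells on the way, the NTS and CHGB lines end at 34 UMIs or fewer, and the AVP line of embryo 2 runs from 20 positive cells to a single cell with 1206 UMIs.

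Because free RNA in droplets and deep cells both raise a share of positive cells, shares were compared with those of erythroid cell-like cells, which are not known to make these peptides and had the deepest cells (medians of 10657 and 11509 UMIs). SST was detected in 14.98% ± 2.24 of forebrain GABA neuron-like cells (medians of 2189 and 2157 UMIs), 8.22% ± 0.140 of cluster 5 (3474 and 3478 UMIs) and 1.49% ± 0.196 of erythroid cell-like cells. In erythroid cell-like cells a single cell held 47 of the 85 SST UMIs of embryo 1, and another 14 of the 30 of embryo 2. With every cell thinned to 1500 UMIs, the 3 shares became 12.2% ± 0.840, 7.18% ± 0.394 and 0.645% ± 0.0118. Thinning takes most from the deepest cells, free RNA included, so thinned shares cannot tell how much free RNA gave. Midbrain GABA neuron-like cells had 1.67% before and 1.38% after thinning. Thinning left out 488 forebrain GABA neuron-like, 147 cluster 5, 618 midbrain GABA neuron-like and 166 erythroid cell-like cells with fewer UMIs.

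NTS was detected in 6.86% ± 0.710 of midbrain GABA neuron-like cells, or 4.39% ± 0.370 after thinning, and in 0.0479% of erythroid cell-like cells, where no UMI was left after thinning. For CHGB the order of the 2 leading groups turned on the measure, since it was detected in 17.1% ± 1.68 of cluster 5 and 9.53% ± 3.84 of forebrain GABA neuron-like cells, while the CPM of the latter was the higher mean. After thinning the CHGB shares were 9.20% ± 0.465 and 7.51% ± 2.96, which overlapped, against 0.380% ± 0.387 in erythroid cell-like cells.

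Cells with at least 3 UMIs were taken as clearly positive below. Of the 320 such SST cells 174 were forebrain GABA neuron-like (54.4%) and 91 lay in cluster 5 (28.4%), and 7 were erythroid cell-like. Of the 161 CHGB cells 88 were forebrain GABA neuron-like (54.7%) and 56 lay in cluster 5 (34.8%), and none was erythroid cell-like. Of the 54 NTS cells 27 were midbrain GABA neuron-like (50%), 11 forebrain GABA neuron-like and 10 in cluster 5.

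In the forebrain class SST and CHGB were seldom found in the same cell. Among the 2432 forebrain GABA neuron-like cells, 174 had at least 3 SST UMIs, 88 had at least 3 CHGB UMIs and no cell had both. At 1 UMI or more, 356 cells had SST, 246 had CHGB and 12 had both, which is 3.37% of the former and 4.88% of the latter. Among all cells of the class 9.53% ± 3.84 had CHGB and 14.98% ± 2.24 had SST. In the 23 and 65 cells with at least 3 CHGB UMIs there was not a single SST UMI, which allows a share of SST-positive cells of up to 3.41%. The exact 95% upper limits by embryo were 14.8% and 5.52%, where 17.3% and 14.6% of the cells without CHGB had SST. Cells of this class without CHGB had 477 CPM of SST in embryo 1 and 361 in embryo 2. The other way round, cells with at least 3 SST UMIs had 19.0 and 23.3 CPM of CHGB, from 3 and 5 UMIs, against 78.9 and 155 in cells without SST. By CPM the counting intervals of the arms did not overlap in either embryo. By share of cells with CHGB they overlapped in embryo 1 (4.17% against 7.66%) and not in embryo 2 (3.92% against 13.5%).

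In cluster 5 some cells held both genes. Of the 1581 cells of this cluster 91 had at least 3 SST UMIs, 56 at least 3 CHGB UMIs and 3 had both, which are all the cells of the series with both. At 1 UMI or more, 17 cells had both, which is 13.1% of the SST-positive and 6.30% of the CHGB-positive cells. Among all cells of the cluster 17.1% ± 1.68 had CHGB and 8.22% ± 0.140 had SST, so both overlaps, pooled over the embryos, lay below these shares. The embryos differed in this. In embryo 1, 8.2% of the cells without CHGB had SST, against 8.3% of all its cells, so the overlap there lay slightly above. In embryo 2 these shares were 9.0% and 8.1%, so it lay below. SST in CHGB cells of cluster 5 was 1163 CPM in embryo 1 and 40.8 in embryo 2, against 206 and 518 in CHGB-zero cells, so the embryos went opposite ways. In embryo 1, 225 of those 228 SST UMIs lay in 1 cell, and in embryo 2 the level rested on 3 UMIs in 1 cell.

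Over all cells, SST was found in 7.17% and 4.20% of the CHGB-positive cells of embryos 1 and 2, where 4.02% and 4.00% of all cells had it. Of the NTS-positive cells 2.73% and 0.538% had SST, which are 4 cells. CHGB was found in 17 of the 296 NTS-positive cells (5.74%), against 3.48% and 4.60% of all cells. No cell had at least 3 UMIs of NTS together with 3 of SST or of CHGB, but only 54 cells had that many NTS UMIs, so little can be read from these zeros. None of the 174 SST cells of the forebrain class had an NTS UMI, with exact 95% upper limits of 4.99% and 3.55% in the embryos. NTS was found in 1.88% and 2.03% of the cells without SST, which lies within those limits.

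**Figure D3:**
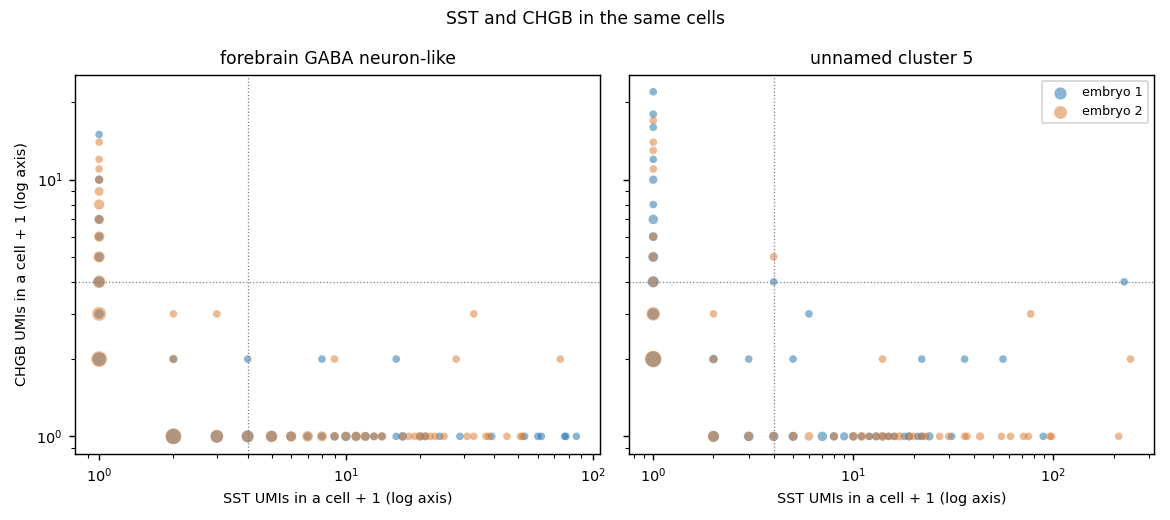
SST UMIs plus 1 against CHGB UMIs plus 1 (log axes) of each cell with at least 1 UMI of either gene, in forebrain GABA neuron-like cells and in cluster 5, coloured by embryo, with larger points where more cells share a value and dotted lines at 3 UMIs. In the forebrain class the upper right field holds no cell, and in cluster 5 it holds 3.

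For a test on sums, UMIs were added up by embryo and class. Neuron-like classes were then compared with radial glia-like and dividing cell-like classes by edgeR's quasi-likelihood test. Cluster 5, with 43.2% of the SST and 38.1% of the CHGB UMIs, had no name and so was on neither side. The clusters were built from these same cells without any listed gene, and were named from markers, some of which are on the lists. SST was higher in the neuron-like classes by 2.38 ± 0.19 on the log2 scale (SE, edgeR quasi-likelihood test, Benjamini-Hochberg adjusted p = 8.97e-22). It was higher in each embryo by itself, by 3.27 in embryo 1 and 1.62 in embryo 2 on the log2 scale. Such values of 1 embryo, here and for the next genes, are differences of mean log2(CPM + 1) without a refit. They are thus another measure than the edgeR differences. CHGB was higher by 2.13 ± 0.21 (adjusted p = 7.66e-17 in the same edgeR test), with 2.12 and 1.46 in the embryos by themselves. NTS was higher by 3.83 ± 0.53 (adjusted p = 3.58e-10 in the same edgeR test), with 3.11 and 1.81. The radial glia-like and dividing cell-like sums held 0 to 10 NTS UMIs. NTS thus passed the filter on low counts through the neuron-like sums, and the test adds little to the levels above. Not every neuron-like class was higher. Midbrain or thalamus excitatory neuron-like cells had 0.736 ± 0.402 CPM of NTS, against 0.949 ± 0.797 in dividing and 0.340 ± 0.480 in radial glia-like cells. AVP fell below the filter on low counts. Against these 3 of 3 tested members stood a background of 30.1% of the 10491 tested genes called higher and 35% called lower, with a median log2 difference of -0.06. The members, like the lists below, were chosen with earlier results of these data known, so this count is a description and no support. Leaving out the cells with the highest Scrublet scores (3.31, SE 5287) lost the NTS call, with an adjusted p = 1 in the same edgeR test. So did requiring at least 1000 genes for each cell (1.74, SE 122). With SEs so far above the 0.53 of the main fit, those fits cannot tell whether the NTS difference holds.

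The machinery around the peptides was mostly higher in the neuron-like classes too, where 30.1% of all tested genes were called higher. Of the 4 granin and granin-like genes tested besides CHGB, all 4 rose, namely SCG5 by 2.61 ± 0.24, VGF by 2.15 ± 0.54, SCG3 by 2.08 ± 0.04 and PCSK1N by 0.60 ± 0.04 on the log2 scale (SE). The other members of that list, CHGA and SCG2, had no model of that name. Among the processing enzymes, PCSK1 rose by 3.22 ± 0.76, PCSK2 by 2.60 ± 0.44 and CPE by 1.18 ± 0.04, PAM fell by 0.40 on the log2 scale, and CPD at 0.00 ± 0.10 did not pass. All 4 tested genes of dense-core vesicle release rose, from 0.41 ± 0.05 for CCDC186 through 1.70 ± 0.07 for CADPS, which primes the vesicles, and 2.23 ± 0.38 for HID1 to 4.02 ± 0.40 for PTPRN, a protein of their membrane. VGF, HID1, PCSK1 and PTPRN had 100 to 247 UMIs over all cells. Genes so low can pass the filter on low counts only through groups where they are high, so their calls add little to their levels. These counts are descriptions, as for the members.

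Receptors were thinly covered. Of 12 receptor genes 3 could be tested, and SORT1, a sorting receptor that binds neurotensin, rose by 0.58 ± 0.09 while SORL1 fell by 1.01 on the log2 scale. SSTR2, a somatostatin receptor, did not pass, but 103 of its 158 UMIs lay in cortical excitatory neuron-like cells, at 22.2 and 22.5 CPM. NTSR2 had 13 UMIs, SSTR4 had 1, and SSTR5, AVPR1B and AVPR2 had 0. Of 25 other neuropeptide genes 7 could be tested, of which TAC1 (2.07 ± 0.61) and NMB (1.52 ± 0.15) rose, PENK fell by 1.92 on the log2 scale and 4 did not pass. The fall of PENK is one of the mean over the neuron-like classes. Its highest group was itself neuron-like, the forebrain GABA neuron-like cells with 21.4 ± 5.33 CPM and 127 of 467 UMIs.

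The highest groups of these genes differed among themselves. SCG3 was highest in forebrain GABA neuron-like cells at 1154 ± 84.7 CPM, CADPS in midbrain GABA neuron-like cells at 722 ± 27.3, and PCSK2 in midbrain or thalamus excitatory neuron-like cells at 28.2 ± 1.66. PCSK1N, with 3299 ± 403 CPM, and CPE, with 690 ± 36.1, were highest in cluster 5. POMC and NMB were also highest in cluster 5, with 91.5 ± 40.9 and 69.4 ± 1.20 CPM.

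To see what sets SST cells apart from their neighbours, the 72 and 102 forebrain GABA neuron-like cells with at least 3 SST UMIs were summed by embryo and compared with the 796 and 1280 without SST. Their median depths were 2149 and 1940 UMIs against 2218 and 2201. At a resolution of 1.0, 2 clusters had the forebrain GABA neuron-like name. One of 2002 cells had SST and CHGB among its leading genes, and the other of 732 cells had EOMES, DLL3 and TMEM123. The part of such a division in this comparison, and in that of the CHGB cells of this class below, was not tested. Of 6114 genes tested, 68 were higher (1.11%) and 149 lower (2.44%) in SST cells, 3.55% in either direction, and all 217 had the same direction in both embryos. The median difference was -0.02 on the log2 scale. With 4 sums the fit has 1 residual degree of freedom, so its p-values rest on a spread shared between genes. Scaled to library totals, which moved the median of all genes up by 0.11, 194 genes were higher and 131 lower, so the split of the calls turned.

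SST cells had more of SOX6 and less of 4 striatal genes. SOX6, a transcription factor of interneurons from the medial ganglionic eminence, stood at 217 and 206 normalized CPM in SST cells against 55.9 and 59.2 in cells without SST, and the embryos' values did not overlap between the arms. It rose by 1.87 ± 0.22 on the log2 scale (SE, edgeR quasi-likelihood test, adjusted p = 0.000357). Of 13 tested genes of the interneuron list it was the 1 that passed, with a list median of 0.54. LHX6, a factor of the same interneuron lineage, was 31.0 and 18.3 against 8.38 and 7.87 normalized CPM (9 UMIs in SST cells, adjusted p = 0.193 in the same edgeR test), and MAF 18.6 and 22.9 against 5.59 and 5.48 (8 UMIs, adjusted p = 0.101).

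Of 7 tested genes of the striatal list 4 fell in SST cells. MEIS2, a factor of striatal projection neurons, was 18.6 and 9.14 normalized CPM against 79.3 and 105 and fell by 2.83 on the log2 scale, and SIX3 was 24.8 and 4.57 against 74.8 and 84.9 and fell by 2.60. Each rested on 5 UMIs in SST cells. FOXP2 and PENK, which encodes the enkephalin precursor, had 0 UMIs in SST cells against 177 and 126 in the others, and so were at least 4.41-fold lower and at least 3.14-fold lower when a count of 3 is put in their place. ISL1 did not pass, with 6.20 and 18.3 against 41.3 and 52.0 normalized CPM. The median of the 7 was -2.60, or -1.85 with FOXP2 and PENK at those bounds.

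CHGB itself was among the genes that fell, by 2.61 on the log2 scale (SE 0.36, edgeR quasi-likelihood test, adjusted p = 0.0011). That fall rested on 3 and 5 CHGB UMIs in the SST cells of embryos 1 and 2. NTS, with 0 UMIs in SST cells and 91 in the others, did not pass. None of the 4 granin-like, 3 processing and 2 vesicle genes tested passed in either direction, with medians of 0.44, 0.21 and 0.12. GAD2, a GABA-synthesizing enzyme, fell by 0.31 and INA, a neurofilament protein, rose by 0.61. POU3F2 fell by 1.17, and TFAP2B, with 2 UMIs in SST cells, was 12.5-fold lower with a counting interval of 3.42 to 103. Without the replicate block the calls of CHGB, PENK, FOXP2, INA, GAD2, POU3F2, TCF7L2, CCDC88A and MXRA5 were lost, and with DESeq2 those of SIX3, INA, GAD2, POU3F2, TCF7L2 and TFAP2B.

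The 10 genes with the lowest adjusted p among those higher in SST cells were PDE4DIP (1.18 ± 0.08), CAMK2N1 (1.26 ± 0.10), EPHA5 (1.60 ± 0.14), BTBD8 (1.43 ± 0.14), TCF4 (1.35 ± 0.15), CHL1 (1.56 ± 0.18), NETO2 (0.94 ± 0.11), SOX6, CCDC88A (0.51 ± 0.06) and PLST (1.55 ± 0.20), on the log2 scale with SE. EPHA5 and CHL1 are axon guidance and adhesion molecules, CAMK2N1 inhibits a calcium-dependent kinase, and NETO2 is an auxiliary subunit of kainate receptors. The 5 lowest among those that fell were CCND2, a cyclin of dividing cells (-2.39 ± 0.16), PTGDS, a prostaglandin synthase (-4.10 ± 0.30), CKB, a creatine kinase (-1.04 ± 0.08), TMEM123 (-1.77 ± 0.15) and MXRA5 (-0.59 ± 0.05).

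CHGB cells of the same class had less of several interneuron genes and more of a pair of striatal ones. The 23 and 65 forebrain GABA neuron-like cells with at least 3 CHGB UMIs (medians of 2223 and 2212 UMIs) were compared with 889 and 1297 cells without CHGB (2202 and 2160). Of 6051 genes tested, 53 were higher (0.876%) and 96 lower (1.59%), 2.46% in either direction, and 146 of the 149 had the same direction in both embryos. The median difference was -0.09, or 0.04 with library totals, where 71 genes were higher and 56 lower. The cells without CHGB include the SST cells, so the comparison is not independent of the one above.

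SST had the lowest adjusted p of the genes that fell. It had 0 UMIs in CHGB cells of both embryos against 2107 UMIs in the others, and was at least 26.9-fold lower with 3 counts in place of 0 (edgeR quasi-likelihood test, adjusted p = 2.31e-30). Of 11 tested interneuron genes 6 fell and none rose. NR2F2, NPAS1 and NKX2-1 had 0 UMIs in CHGB cells against 389, 285 and 196 in the others, and were at least 4.97-fold lower, 3.64-fold lower and 2.51-fold lower. SOX6, the gene that rose in SST cells, had 1 UMI against 397 (15.2-fold lower, counting interval 2.72 to 603), NPAS3 had 1 against 323 and NR2F1 had 2 against 457. With the genes without UMIs at their bounds the list median was -1.87. DESeq2 did not call SST here, nor NR2F1, NR2F2, SOX6, NPAS1 and NPAS3, and SOX6, NPAS1 and NKX2-1 lost the call in cells of 2000 to 8000 UMIs, NKX2-1 also with library totals.

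The striatal list split in CHGB cells. FOXP2, a factor of striatal projection neurons without a UMI in SST cells, was 126 and 128 normalized CPM against 17.5 and 31.3 and rose by 2.24 ± 0.47 on the log2 scale (SE, edgeR quasi-likelihood test, adjusted p = 0.000246). ISL1, a factor of striatonigral neurons and cholinergic cells, was 144 and 108 against 32.4 and 39.3 and rose by 1.66 ± 0.43 (adjusted p = 0.00816 in the same edgeR test). For both genes the sums of CHGB cells of either embryo stood above those of cells without CHGB. SIX3 went the other way with 1 UMI against 391, lower by a ratio with a counting interval of 2.68 to 594, and the other 4 of 7 did not pass. ISL1 and SIX3 lost the call with DESeq2, ISL1 also in cells of 2000 to 8000 UMIs. MEIS2, which fell in SST cells, was 144 and 141 against 71.0 and 89.3 and did not pass here.

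None of the 3 granin-like, 3 processing and 2 vesicle genes tested passed between CHGB cells and the others, although CHGB belongs to that machinery. SCG3 differed by 0.04 ± 0.13 and PCSK1N by -0.25 ± 0.12 on the log2 scale. HBB, a haemoglobin gene of red cells, fell in CHGB cells by 0.79 on the log2 scale, and its part in these results was not tested.

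The genes with the lowest adjusted p among those higher in CHGB cells were led by DAAM1 (1.92 ± 0.12), a regulator of actin, and NEFM (2.39 ± 0.18), the medium neurofilament. They were followed by ATBF1 (1.71 ± 0.17), CNTNAP2 (1.42 ± 0.15), FAT4 (2.48 ± 0.29), CDK17 (1.65 ± 0.21), VCAN (1.50 ± 0.20), ISLR2 (2.08 ± 0.28) and NRX1A (2.06 ± 0.29). CNTNAP2, FAT4 and ISLR2 are adhesion or guidance molecules of axons and cell contacts. Besides SST, those with the lowest adjusted p among the genes that fell were TMEM123 (-2.50 ± 0.29), PTGDS (-3.70 ± 0.46), LGALS1 (-3.05 ± 0.39) and NCAPD2 (-0.99 ± 0.13) on the log2 scale. TMEM123 and PTGDS thus stood among the 5 leading lower genes of both comparisons.

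**Figure D4:**
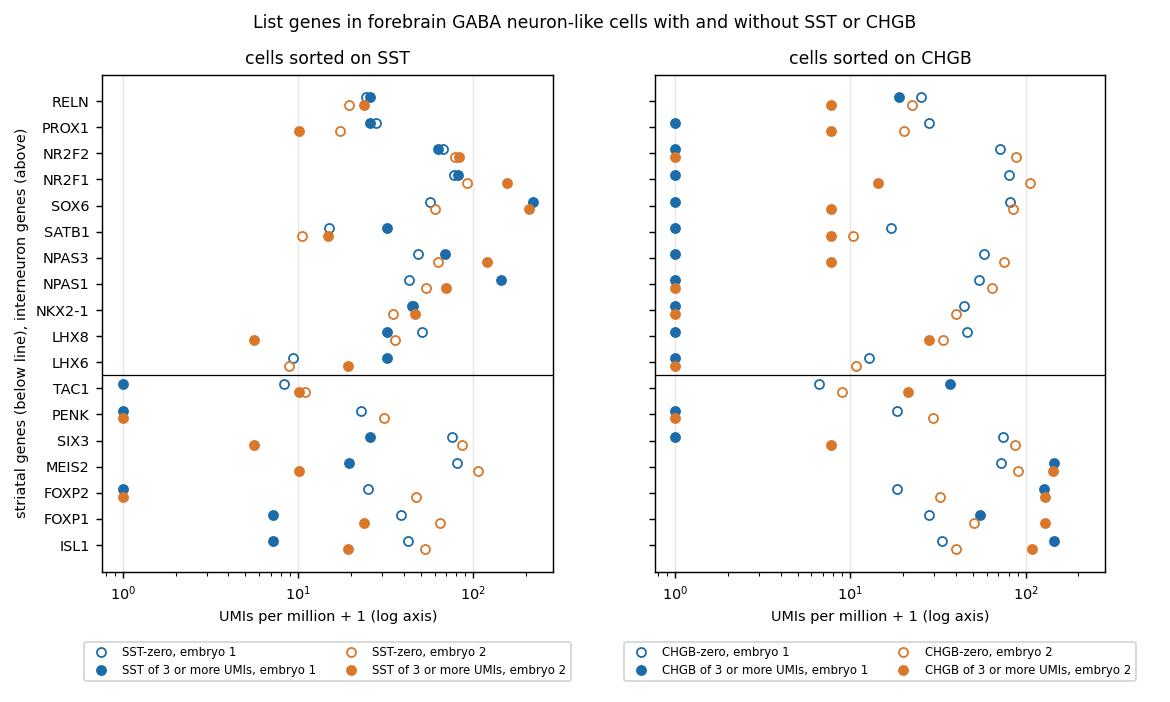
Interneuron genes (above the line) and striatal genes (below it) in forebrain GABA neuron-like cells, as CPM plus 1 on a log axis, for cells with at least 3 UMIs of SST (left) or CHGB (right) as filled points and cells with 0 UMIs as open points, coloured by embryo. SOX6 lies to the right in SST cells and at the left edge in CHGB cells, while FOXP2 lies at the left edge in SST cells and to the right in CHGB cells.

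The SST cells of cluster 5 were compared with their neighbours in the same way. At a resolution of 1.0, a granule neuron-like cluster of 1162 cells had SST among its leading genes. Another of 442 cells had GNG8, NEFM and TCF7L2 among its own. The part of such a division in this comparison was not tested. The 43 and 48 cells with at least 3 SST UMIs (medians of 3420 and 3930 UMIs) were compared with 716 and 735 without SST (3473 and 3424), a comparison added after the data had been seen. Of 6865 genes tested, 31 were higher (0.452%) and 61 lower (0.889%), 1.34% in either direction, all 92 with the same direction in both embryos. With library totals 52 were higher and 49 lower. GAD2 was 518 and 608 normalized CPM against 327 and 366 and rose by 0.70 ± 0.12 (edgeR quasi-likelihood test, adjusted p = 0.000254). SLC17A6, a transporter that loads glutamate into vesicles, was 69.4 and 68.1 against 148 and 144 and fell by 1.08.

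Of 6 tested genes of the midbrain or thalamus glutamate list 4 fell in these cells. TCF7L2, a transcription factor of thalamic neurons, was 126 and 36.7 against 1392 and 1318 normalized CPM and fell by 4.13 on the log2 scale, LHX9 fell by 2.83, and SHOX2 had 0 UMIs against 289 and was at least 6.26-fold lower. EBF3 of the same list rose by 2.09 ± 0.18. LHX1, a factor of GABA neurons of the midbrain list, rose by 1.68 ± 0.19 and TFAP2B of that list fell by 2.49. TCF7L2 and TFAP2B were also called lower in the SST cells of the forebrain class, where TCF7L2 had 1 UMI against 200, lower by a ratio with a counting interval of 2.65 to 594. FOXP2 rose by 1.28 ± 0.28, whereas it had no UMI in the SST cells of the forebrain class. SOX6, with 50.5 and 20.9 against 7.52 and 7.39 normalized CPM, did not pass here (adjusted p = 0.0746 in the same edgeR test).

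Among other genes, CDH9, a cadherin, had the lowest adjusted p of those that rose in these cells (4.43 ± 0.27 on the log2 scale). PCP4 (2.89 ± 0.23), PTN (1.60 ± 0.13), ARHGAP20 (2.53 ± 0.24), NARG2 (2.07 ± 0.27), evm.model.chr1.1172 (1.68 ± 0.23), HAS2 (3.59 ± 0.51) and SERPINI1 (1.51 ± 0.22) completed the leading 10 with EBF3 and LHX1. Besides TCF7L2, those that fell were led by NEFM (-1.67 ± 0.10), CRABP1 (-4.46 ± 0.34), IBPL1 (-2.35 ± 0.28), and GNG8, with 0 UMIs against 1206 and so at least 26.1-fold lower. POMC had 1 UMI in SST cells against 528 in the others, 34.3-fold lower with a counting interval of 6.13 to 1357. CHGB did not pass in cluster 5 (-0.90 ± 0.31, adjusted p = 0.21 in the same edgeR test). DESeq2 did not call GAD2, SLC17A6, LHX9, SHOX2, FOXP2, GNG8 or POMC, and SLC17A6 lost its call without the replicate block as well.

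For CHGB in cluster 5, 37 and 19 positive cells (medians of 4857 and 3876 UMIs) were compared with 657 and 654 without CHGB (3380 and 3440), so the CHGB cells of embryo 1 were deeper. Of 6723 genes 31 were higher (0.461%) and 18 lower (0.268%), 0.729% in either direction, and 42 of the 49 had the same direction in both embryos. DESeq2 called DIRAS3 alone. By edgeR the leading higher genes were DIRAS3 (2.75 ± 0.21 on the log2 scale) and CRYBA2, with 24 UMIs in CHGB cells and 0 in the others, at least 138-fold higher with 3 counts in place of 0. GNG8 and POMC had 0 UMIs in CHGB cells and were at least 22.4-fold lower and 6.80-fold lower. Of the interneuron list NKX2-1 (2.41 ± 0.63) and LHX8 (2.78 ± 0.74) were called higher, and both lost that call without the replicate block. NKX2-1 was called lower in the CHGB cells of the forebrain class. SST was called higher by 1.00 ± 0.19, but by the difference of log2(CPM + 1) it was 2.36 higher in embryo 1 and 3.91 lower in embryo 2.

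NTS cells were tested from 2 UMIs, an alternative added after the data had been seen, since 8 midbrain GABA neuron-like cells of embryo 1 had at least 3. The 21 and 47 cells with at least 2 NTS UMIs were shallower (medians of 1617 and 1553 UMIs) than the 894 and 1916 cells without NTS (2316 and 2211), and the part of that depth gap in the results was not tested. Of 6112 genes tested, 12 were higher (0.196%) and 31 lower (0.507%), 0.704% in either direction, all with the same direction in both embryos. The median difference of all genes was -0.16 on the log2 scale and 0.12 with library totals, where 26 genes were higher and 9 lower.

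NR2F2, an orphan nuclear receptor, stood at 281 and 600 normalized CPM in NTS cells against 63.6 and 51.1, and rose by 3.11 ± 0.28 on the log2 scale (SE, edgeR quasi-likelihood test, adjusted p = 9.79e-25). TFAP2B, a marker used to name this very class, had 0 and 4 UMIs in NTS cells, or 0 and 47.1 normalized CPM against 1196 and 1346, and fell by 5.38 (adjusted p = 9.52e-33 in the same edgeR test). Of 11 tested genes of the midbrain GABA list it fell along with PAX3, which had 2 UMIs against 834, and the other 9 did not pass. Among these were GATA3, with 46.8 and 58.9 against 80.1 and 88.2 normalized CPM, and OTX2, with 93.5 and 459 against 267 and 309.

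FOXP2 rose in NTS cells by 1.93 ± 0.40, the guidance receptor ROBO2 by 1.25 ± 0.22, PTPRO by 1.56 ± 0.29, INA by 1.02 ± 0.23, the synaptic vesicle protein SV2C by 2.93 ± 0.62, CSMD1 by 3.34 ± 0.80 and GHR, the growth hormone receptor, by 4.14 ± 0.83 from 10 UMIs. The other leading higher genes were evm.model.chr7.777 (1.14 ± 0.20) and evm.model.chr12.36 (1.35 ± 0.33). Besides TFAP2B, the leading lower genes were KLH35 (-2.09 ± 0.27), THSD7A (-1.77 ± 0.26), PPP1R1A (-3.02 ± 0.44) and HS90B (-1.30 ± 0.26). DESeq2 called NR2F2, TFAP2B, THSD7A and KLH35 alone, so the calls of PAX3 and of the other genes named here were lost with it. None of the 2 granin-like, 4 processing and 3 vesicle genes tested passed, and SST, with 1 UMI in NTS cells, did not pass.

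Across the 16 clusters, the levels of SST were most like those of PIP4P2 (Pearson's r = 0.929 of log2(CPM + 1), 9889 genes compared), ZDHHC22 (0.888), SYT5 (0.878), CAMK2B (0.875) and ERC2 (0.874). For CHGB they were SEPT5 (0.905), GABRA4 (0.895), ENOX1 (0.885), PRKAR1B (0.884) and STK32B (0.883), and for NTS they were KCAB2 (0.890), TCERG1L (0.874), ACCN2 (0.872), GAD1 (0.864) and RAB3C (0.864). Those for AVP were POMC (0.879), ACHE (0.830), CDH9 (0.806), GABRB1 (0.761) and LRFN5 (0.751), and rest on the 1 cell that sets the level of cluster 5. PIP4P2, ZDHHC22, SYT5, ERC2 and KCAB2 had 100 to 162 UMIs over both embryos, so their values rest on few counts. In cluster 15 of embryo 2 a single UMI is 27.4 CPM. The clusters share their libraries and differ in depth, so all these values of r are descriptions. Between members, r was 0.805 for SST and CHGB, 0.782 for NTS and CHGB and 0.712 for SST and NTS.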

How the data were processed

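Droplet single-cell libraries of 2 whole tree shrew brains, 1 for each embryo, were analysed. The authors checked the reads with fastp, aligned and counted them with Cell Ranger 3.1.0 under default settings against the TS_2.0 assembly, and deposited raw UMI counts for each gene model and barcode. Seurat 3, also in the submitters' processing notes, was not needed for these counts. The deposited tables pair models with names and hold no coordinates, and no sequence was used here.

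Python 3.11.15 with numpy 2.4.6 and scipy 1.17.1 served to read the counts. Cells with at least 200 genes were scaled to 10000 UMIs and log-transformed, and 2000 variable genes without any listed gene gave 20 components. The graph of 20 shared neighbours (scikit-learn 1.9.0) was split by the Leiden method (leidenalg 0.10.2, resolution 0.5). A cluster was named from at least 3 markers, each 2-fold or more above the other cells and seen in 10% or more of the cluster, unless types tied, another type had more markers in the 10 leading genes, or the cluster was shallow. Doublets were kept. The threshold that Scrublet (scanpy 1.11.5) set for itself called 0 and 3 cells, so the highest scores (566 and 696 cells) were left out as an alternative.

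For UMI sums by embryo, edgeR 4.0.16 was run under R 4.3.3 (TMM, filterByExpr, quasi-likelihood, embryo as a block, Benjamini-Hochberg over all genes tested, threshold 0.05). The class fit used 20 sums with 9 residual degrees of freedom, the others 4 with 1. Each positive arm needed 15 cells in each embryo, which the planned tests of NTS and AVP at 3 UMIs did not reach, so NTS was tested at 2 UMIs instead. That test and those in cluster 5 were added after the data had been seen. A gene with 0 UMIs in an arm was given a bound from 3 counts over both embryos, and intervals (95% Poisson or Clopper-Pearson) cover counting error only. The block follows the animal: deviations of the same embryo in 45 pairs of classes had a median r of 0.25 (0.0685 to 0.632, 41 over 0.1). Nothing tells whether the embryos shared a litter. With the embryo as a block, p-values rest on the scatter left between sums of these 2 animals, shared between genes. They do not measure the spread between animals.

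Genes named are the members, those of the gene lists, the 5 most like each member over clusters, and in each test of positive cells the 10 higher and 5 lower genes with the lowest adjusted p and the same direction in both embryos. Not all of the genes that this rule takes are reported here. Members and lists were chosen with earlier results of these data known. In simulated data with 100 genes changed 2-fold and 100 changed 4-fold, 82 and 91 were recovered for the class comparison (9236 genes), 30 and 58 for SST (5901 genes), 16 and 52 for CHGB (6051 genes), and 11 and 33 for NTS (6048 genes). Among the unchanged genes 4, 4, 3 and 1 were called. The draws used 1 dispersion for all genes and no other differences between classes or embryos, unlike the real data, so recovery in the real tests can differ. The alternatives were a resolution of 1.0, 30 components, at least 1000 genes, other cutoffs of UMIs, cells of 2000 to 8000 UMIs, RLE factors, library totals, DESeq2 1.42.0, no filter, a fit lacking the block, and either embryo alone. For the tests, an embryo alone gave a difference of log2(CPM + 1) and no fit.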

Additional observations from a re-analysis of the deposited data

Results flagged for a closer look

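Transcripts of 3 of the 4 genes appeared in barcodes that were not used as cells. The 1191 barcodes with fewer than 200 genes held 5967338 UMIs, among them 7 UMIs of SST in 7 barcodes and 7 UMIs of CHGB in 6 barcodes, or 1.17 CPM of each, above the limit that a count of 0 would allow. NTS had 2 UMIs there, under that limit, and AVP had 0.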

How the results depend on the processing

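The class comparison called 6044 to 7225 genes under every alternative. Its directions for SST, CHGB and NTS held in all of them. NTS missed the threshold with the highest Scrublet scores left out (3.31, SE 5287) and with at least 1000 genes (1.74, SE 122). With SEs of that size, neither fit can tell whether the NTS difference holds. With 1 embryo left out at a time no fit was run. The differences of mean log2(CPM + 1) in the embryo that was left were 1.62 to 3.27 for SST, 1.46 to 2.12 for CHGB and 1.81 to 3.11 for NTS. Library totals made 56.8% of the calls of the class comparison higher, against 46.2% with TMM.

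The counts of genes that set positive cells apart moved more. For SST (217) they were 327 with RLE factors, 333 without a filter, 65 without the replicate block, 90 with DESeq2 (all 90 among the 217) and 358 from 2 UMIs. For CHGB (149) they were 229 without a filter, 31 with DESeq2 and 227 from 2 UMIs. For NTS (43) they were 65 without a filter, 23 without the replicate block and 4 with DESeq2 (NR2F2, TFAP2B, THSD7A and KLH35). In cluster 5, SST (92) gave 182 without a filter, 46 without the block and 27 with DESeq2, and CHGB (49) gave 32 without a filter, 1 with DESeq2 (DIRAS3) and 24 in cells of 2000 to 8000 UMIs. Calls were 59.7% higher with library totals for SST, 55.9% for CHGB, 74.3% for NTS, and in cluster 5 51.5% for SST and 73.6% for CHGB, against 31.3%, 35.6%, 27.9%, 33.7% and 63.3% with TMM. The cause of these shifts was not tested. CHGB from 5 UMIs, NTS in cells of 2000 to 8000 UMIs and counts of genes in a single embryo were not run, for want of cells or of residual degrees of freedom.

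In its highest named class SST was 316 CPM at a resolution of 1.0, 286 with at least 1000 genes and 480 as a mean over cells. NTS was 43.9 with 30 components, 16.4 with at least 1000 genes, 44.3 without cells of 1% haemoglobin or more and 69.3 as a mean over cells. By embryo the levels were 361 to 457 for SST, 44.7 to 45.3 for NTS, 0 to 4.01 for AVP and 68.9 to 140 for CHGB. Direction changed for SST in the CHGB cells of cluster 5, to -0.60 with DESeq2 and from 2.36 without embryo 2 to -3.91 without embryo 1, and for PENK there, from 2.55 to -2.22. The values without an embryo are differences of log2(CPM + 1), not refits.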
